A study of Mus musculus with 4 samples.

Results

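The LIN28, HMGA, IMP and TRIM71 genes were followed in neural progenitors of the mouse embryo by RNA sequencing. They comprise Lin28a, Lin28b, Trim71, Hmga1, Hmga2, Igf2bp1, Igf2bp2 and Igf2bp3, and they were picked by name as genes of embryonic timing. All 8 were found among the 21091 entries listed for each library. Of these 8 genes, 6 reached a mean of 1 FPKM across the 4 libraries, the level required for a gene to be counted, as did 12449 of all entries. FPKM counts the fragments of a transcript after division by its length and by the size of the library. Lin28a, with a mean of 0.395 FPKM, and Trim71, with a mean of 0.853 FPKM, stayed under this level and are given by their values only. Lin28b and Hmga2 passed mainly through their values in the E11 libraries.

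The progenitors came from C57BL/6 embryos at embryonic day 11 (E11) or 14 (E14), and RNA was taken after 3 days of growth in suspension. At each stage there was a control library (CTL) and a library labelled as a conditional knockout of Stat3 (Stat3 cKO), which makes 4 libraries with 1 in each group. In the Stat3 cKO embryos, Cre recombinase driven by the Nestin promoter, which is active in neural progenitors, acts on both floxed copies of Stat3. The floxed part covers only some of the exons, and the study states that the knockout is reached by E14. The labels call the controls WT. Wild-type is also the word in the RNA sequencing methods of the study, but its section on animals gives controls that carry Nestin-Cre and a single floxed copy, so a difference in Cre or in Stat3 dose cannot be told apart from the named genotype. How many embryos or cultures stood behind a library is not given in the sources used here. With a single library in each group, no difference could be set against a spread between replicates, no test was run, and a gene was counted as changed from a ratio of 2-fold on.

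Stat3, the transcription factor removed in the Stat3 cKO, had 7.41 FPKM in CTL against 6.74 in Stat3 cKO at E11, and 27.6 against 9.55 at E14. It was thus lower in the Stat3 cKO library at E14, and nearly level at E11, where the value does not check the label. An FPKM value of the whole gene also takes in reads from exons outside the floxed part. The FPKM values of a library summed to between 806587 and 1461770, and the sums were higher at E14 than at E11 in both genotypes. Markers of neural progenitors were present in all 4 libraries, with sums of 910 FPKM in CTL against 1030 in Stat3 cKO at E11, and 2031 against 2000 at E14 over 7 genes. The E11 libraries also held mesenchymal transcripts. The 8 mesenchymal markers (Twist1, Col1a1, Col1a2, Col3a1, Pdgfra, Pdgfrb, Lum and Prrx1) summed to 1264 FPKM in E11 CTL and 1178 in E11 Stat3 cKO, against 52.8 and 74.1 FPKM in the corresponding E14 libraries.

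LIN28A and LIN28B are RNA-binding proteins that hold back the maturation of the let-7 microRNAs, and let-7 in turn represses their messenger RNAs. The let-7 family pairs through its seed with sites in the 3′ untranslated regions (UTRs) of genes of early development. Among its best known targets are Hmga2, which encodes a chromatin protein with AT-hooks that is abundant in young neural stem cells, and the Igf2bp genes, which encode the IMP proteins that bind messenger RNAs and affect their stability and transport. TRIM71, the mammalian relative of the worm timing gene lin-41, is an RNA-binding ubiquitin ligase of the early embryo and another classic let-7 target. In the developing brain, LIN28 proteins and HMGA2 are known to be high early and to decline as let-7 accumulates.

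The mature let-7 sequences are shown because the members of the gene group have matches to them. RefSeq lists 9 mature 5p forms of the family on GRCm38.p6, and all 9 have the same seed, bases 2 to 8 from the 5′ end, shown here in capitals for 4 of them, 5′ to 3′.
let-7a-5p: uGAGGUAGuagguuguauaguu
let-7b-5p: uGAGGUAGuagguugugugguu
let-7i-5p: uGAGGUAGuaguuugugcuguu
miR-98-5p: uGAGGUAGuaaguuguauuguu
The reverse complement of the seed is CTACCTC, and a following A, which faces the first base of the microRNA, makes the longer site CTACCTCA. The microRNAs themselves were not analysed here, since none of the entries was a let-7 or miR-98 hairpin (0 entries).

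Every one of the 8 genes held at least 1 match in the longest 3′ UTR that GENCODE M21 gives for it, as did 8.97% of all 20914 UTRs searched. The genes were picked by name, and several are known let-7 targets, so this count is a description and not a finding. For each gene the longer site nearest to the stop codon is given on the gene's strand, with the seed match in capitals. Hmga1 had no longer site, and its only match is given. A shorter match nearer to the stop codon was passed over where there was one. These are sites through which let-7 could pair with the transcript.
Lin28a: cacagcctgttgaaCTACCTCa
Lin28b: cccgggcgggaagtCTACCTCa
Trim71: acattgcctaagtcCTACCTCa
Hmga1: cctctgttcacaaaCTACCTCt
Hmga2: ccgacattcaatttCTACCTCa
Igf2bp1: ctgtgcgaagtaaaCTACCTCa
Igf2bp2: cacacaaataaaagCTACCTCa
Igf2bp3: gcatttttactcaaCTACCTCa
On GRCm38 these stretches lie in the 3′ UTR exons at chr4:134005189-134005210 for Lin28a, chr10:45381022-45381043 for Lin28b, chr9:114512472-114512493 for Trim71, chr17:27563278-27563299 for Hmga1, chr10:120364224-120364245 for Hmga2, chr11:95961778-95961799 for Igf2bp1, chr16:22059473-22059494 for Igf2bp2 and chr6:49086787-49086808 for Igf2bp3. Hmga1 lies on the plus strand and the other members on the minus strand. The site shown starts 36 bases after the stop codon in Lin28b, 58 in Hmga2 and 166 in Trim71, and 1715 in Igf2bp1. Hmga1 was the only member without a longer site, but single matches of other members also lacked the A. The A followed 1 of 4 matches in Lin28b, 1 of 4 in Hmga2 and 3 of 4 in Igf2bp1. It followed every match in Lin28a, Trim71, Igf2bp2 and Igf2bp3.

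The genes differed in how many matches they held. Lin28b, Trim71, Hmga2 and Igf2bp1 had 4 each, Lin28a had 2, and Hmga1, Igf2bp2 and Igf2bp3 had 1 each. Counts of 3 or more were found in 32 of all UTRs searched (0.153%). Long UTRs hold more matches by length alone, so each gene was set beside the UTRs within 20% of its own length. At least 4 matches were held by 0.135% of UTRs as long as that of Hmga2 (3014 bases), by 0.238% of those as long as that of Lin28b (4445 bases), by 0.357% of those as long as that of Igf2bp1 (6337 bases) and by 0.508% of those as long as that of Trim71 (5512 bases). For Lin28a, with 2775 bases, 2.12% of such UTRs held at least 2 matches. A single match was less rare, in 7.96% of UTRs as long as that of Hmga1, 12.03% for Igf2bp2 and 13.3% for Igf2bp3. A match describes the letters only and does not show that the site is used.

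The LIN28 genes had the lowest levels of the group together with Trim71, and their values at E14 were a small part of those at E11. Lin28b (listed at chr10:45096424-45190007) had 3.48 FPKM in CTL against 4.58 in Stat3 cKO at E11, and 0.503 against 0.472 at E14. Both E11 libraries were thus above both E14 libraries, by 6.91-fold in CTL and 9.70-fold in Stat3 cKO. Lin28a (chr4:133559244-133574731), the partner best known from pluripotent cells, had 0.637 FPKM in CTL against 0.852 in Stat3 cKO at E11, and 0.0295 against 0.0608 at E14. Its E14 values were 21.6-fold lower in CTL and 14.0-fold lower in Stat3 cKO, and they rest on very few reads, roughly 4.1 and 9.3 fragments against about 110 in each E11 library. Since FPKM is scaled by length, the levels of the pair can be set side by side, and Lin28b was the higher in every library. The ratio of Lin28b to Lin28a was 5.46 in CTL and 5.38 in Stat3 cKO at E11, and 17.1 and 7.76 at E14. Markers of pluripotent cells were near 0 throughout. Over 6 genes they summed to 0.977 FPKM in CTL against 0.679 in Stat3 cKO at E11, and 0.321 against 0.614 at E14. The part of such cells in the values of Lin28a was not tested.

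Trim71 (chr9:114420390-114473487) went the same way as the LIN28 genes. It had 1.41 FPKM in CTL against 1.81 in Stat3 cKO at E11, and 0.0817 against 0.112 at E14, so that E14 was 17.2-fold lower in CTL and 16.2-fold lower in Stat3 cKO. These E14 values rest on roughly 31 and 45 fragments, against about 630 in each E11 library.

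**Figure D1:**
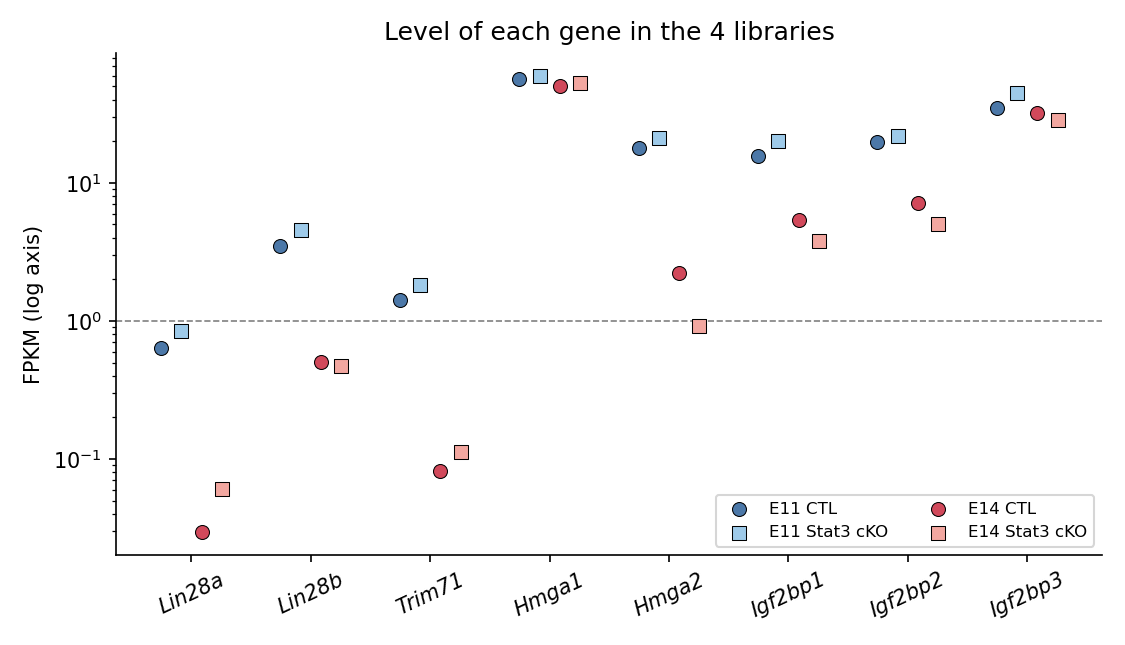
FPKM on a log axis (vertical) of each of the 8 genes in the 4 libraries, with 1 point per library and a dashed line at 1 FPKM. Lin28a, Trim71 and Lin28b lie lowest and drop most between the E11 and E14 libraries together with Hmga2, whereas Hmga1 stays between 50.6 and 59.7 FPKM.

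The HMGA genes, which encode the AT-hook proteins that bend DNA and open chromatin, parted between the stages. Hmga2 (chr10:119798330-119913991) had 18.0 FPKM in CTL against 21.1 in Stat3 cKO at E11, and 2.22 against 0.927 at E14. It was lower at E14 by 8.14-fold in CTL and by 22.8-fold in Stat3 cKO. Hmga1 (chr17:27693518-27700617), the family member found in most dividing cells, had 56.6 FPKM in CTL against 59.7 in Stat3 cKO at E11, and 50.6 against 53.2 at E14. Its log2 ratio between E14 and E11 was -0.16 in CTL, and -0.17 in the Stat3 cKO libraries, which left it the highest member in all 4 libraries. Hmga2 therefore made up 24.2% of the summed FPKM of the pair in E11 CTL and 26.1% in E11 Stat3 cKO, but 4.20% and 1.71% in the corresponding E14 libraries. Hmga1 has a near-identical copy, Hmga1b, and an overlapping gene on the other strand, AI413582, while Hmga2 overlaps the antisense genes 1700006J14Rik and 9230105E05Rik. Whether strand was used in the counting is not stated, so reads from these genes cannot be told apart from those of Hmga1 and Hmga2. Genes on the other strand also overlap Lin28a (Gm13061), Trim71 (C130032M10Rik) and Igf2bp1 (Gm29202), with the same limit. An entry for the pseudogene Hmga2-ps1 was listed at 0.274 FPKM or less.

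The IMP genes split as well. Igf2bp1 (IMP1, chr11:95818477-95867258) had 15.6 FPKM in CTL against 20.3 in Stat3 cKO at E11, and 5.35 against 3.77 at E14, and was lower at E14 by 2.91-fold in CTL and 5.37-fold in Stat3 cKO. Igf2bp2 (IMP2, chr16:22059081-22163372), the member that adult tissues also use, had 19.9 FPKM in CTL against 21.7 in Stat3 cKO at E11, and 7.18 against 5.06 at E14, and was lower by 2.78-fold and 4.29-fold. Igf2bp3 (IMP3, chr6:49035216-49164953), a fetal form that tumours re-express, had 35.1 FPKM in CTL against 44.7 in Stat3 cKO at E11, and 32.2 against 28.4 at E14. Igf2bp3 was thus the highest IMP gene in each library and did not reach a 2-fold difference between stages, with log2 ratios of -0.12 (CTL) and -0.65 (Stat3 cKO libraries). Its share of the summed FPKM of the 3 IMP genes was 49.7% in CTL and 51.6% in Stat3 cKO at E11, and 72.0% and 76.3% at E14. Over the same libraries the sum of the 3 genes was 70.6, 86.7, 44.8 and 37.2 FPKM, and the share of Igf2bp1 was 22.1%, 23.4%, 11.9% and 10.1%. Igf2bp3 overlaps Malsu1 on the other strand, and its reads carry the same limit as those of the HMGA genes.

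**Figure D2:**
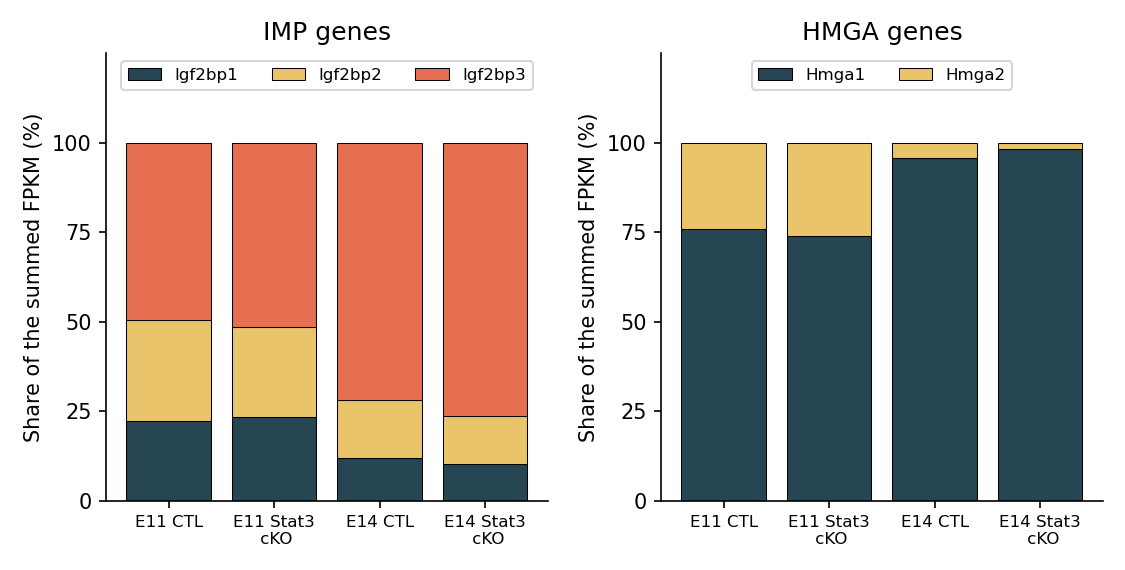
Share of the summed FPKM (percent, vertical) that each gene takes within the HMGA pair and within the IMP trio, for the 4 libraries. Hmga1 takes most of its family at E14 in both genotypes, and the share of Igf2bp3 goes from 49.7% in E11 CTL to 72.0% in E14 CTL.

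Counted together, 4 of the 6 members above the required mean were at least 2-fold lower at E14 than at E11 in CTL (Lin28b, Hmga2, Igf2bp1 and Igf2bp2), where 12.5% of all genes tested were. The same 4 were lower in Stat3 cKO, where 11.7% of all genes were. None of the 6 was 2-fold higher at E14 in either genotype, against 14.6% of all genes in CTL and 10.1% in Stat3 cKO. The median log2 ratio over the 6 genes was -1.51 in CTL and -2.26 in Stat3 cKO, beside 0.21 and 0.06 over all genes tested. In CTL, 3.51% of all genes tested had a lower ratio than Hmga2, 3.83% a lower one than Lin28b, 7.71% than Igf2bp1 and 8.19% than Igf2bp2, while Hmga1 and Igf2bp3 lay near the middle, with 32.1% and 33.9% of genes below them. In Stat3 cKO the corresponding shares were 1.57% for Hmga2, 2.70% for Lin28b, 4.32% for Igf2bp1, 5.09% for Igf2bp2, 37.4% for Hmga1 and 18.2% for Igf2bp3. The order of the levels changed between stages in a single place. In both E11 libraries it ran Hmga1, Igf2bp3, Igf2bp2, Hmga2, Igf2bp1, Lin28b, Trim71 and Lin28a, and in both E14 libraries Igf2bp1 stood above Hmga2. With single libraries it cannot be said which neighbours in this order differ.

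The stage difference coincided with the change in mesenchymal markers. Of the 8 markers, 7 were at least 2-fold lower at E14 in each genotype, Pdgfra being the exception, and without Pdgfra they summed to 1210 FPKM in CTL against 1109 in Stat3 cKO at E11, and 16.9 against 12.9 at E14. None of the 8 was at 0 in any library. Over 6 genes, neuron markers summed to 675 FPKM in CTL against 708 in Stat3 cKO at E11, and 998 against 852 at E14. Endothelial markers summed to at most 4.67 FPKM and microglial markers to at most 3.53, in both cases at E11. Erythroid markers summed to 26.9 FPKM in E11 CTL and at most 3.74 elsewhere. The erythroid sum covers 4 of 5 markers, since Hba-a1 was listed only jointly with Hba-a2 and was left out. The part of these cell types in the lower E14 levels of Lin28a, Lin28b, Trim71, Hmga2, Igf2bp1 and Igf2bp2 was not tested. In such bulk samples, fewer cells of a type and less RNA per cell cannot be told apart. The ratios also depend on the scaling of the libraries, and across the 3 other scalings tried the 4 genes stayed at least 2-fold lower in both genotypes. When FPKM were divided by their sum, Hmga1 and Igf2bp3 also passed 2-fold in Stat3 cKO, with log2 ratios of -1.02 and -1.51, while the median of all genes moved to -0.80.

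**Figure D3:**
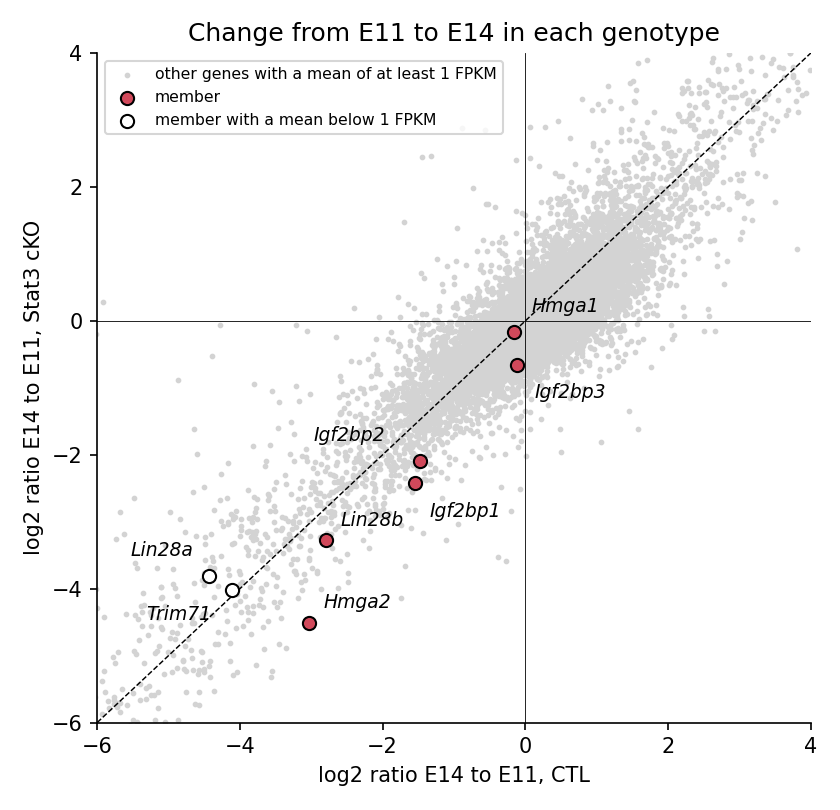
Log2 ratio of E14 to E11 in CTL (horizontal) and in Stat3 cKO (vertical) for the genes tested (grey) and the 8 members (circles, open where the mean is below 1 FPKM), with the line of equal ratios dashed; 173 genes lie outside the axes and are not drawn. Hmga2, at -3.03 and -4.51, lies well below the dashed line, while Hmga1 lies on it.

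Between genotypes, 5 of the 6 members above the required mean were above CTL in Stat3 cKO at E11 and below it at E14. So were 38.7% of all genes tested. Hmga1, and Lin28a and Trim71 under the required mean, were above CTL at both stages. At E11, none of the 6 members reached 2-fold between the library labelled Stat3 cKO and CTL, where 1.12% of all genes were 2-fold lower and 0.209% were 2-fold higher. All 6 had a value above that of CTL, as did 61.8% of all genes tested, and so did Lin28a and Trim71. Their log2 ratios of Stat3 cKO to CTL ran from 0.08 for Hmga1 to 0.40 for Lin28b, with 0.38 for Igf2bp1, 0.35 for Igf2bp3, 0.22 for Hmga2 and 0.12 for Igf2bp2. The median of the 6 was 0.29 beside 0.06 over all genes. These ratios lay inside the range from -0.49 to 0.44 that holds the central genes, from the 5th to the 95th percentile.

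At E14, Hmga2 was the only member above the required mean to pass 2-fold, being 2.39-fold lower in Stat3 cKO (0.927 against 2.22 FPKM), where 1.69% of all genes tested were 2-fold lower and 1.85% were 2-fold higher. A ratio lower than that of Hmga2 was found for 0.877% of genes. The values rest on roughly 150 and 340 fragments, and the log2 ratio of -1.26 became -0.74 when 1 FPKM was added to each value, which no longer passes 2-fold. Of the 6 genes, 5 had a value below that of CTL, as did 60.1% of all genes tested. The log2 ratio was -0.50 for both Igf2bp1 and Igf2bp2, -0.18 for Igf2bp3, -0.09 for Lin28b and 0.07 for Hmga1. The median of the 6 was -0.34 beside -0.08 over all genes, and the 5th and 95th percentiles of all genes were -0.70 and 0.64. Lin28b sat so close to level that its ratio turned to 0.06 with upper-quartile scaling. The members below 1 FPKM had higher values in Stat3 cKO, by 1.04 on the log2 scale for Lin28a and 0.45 for Trim71, on the few fragments given above.

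**Figure D4:**
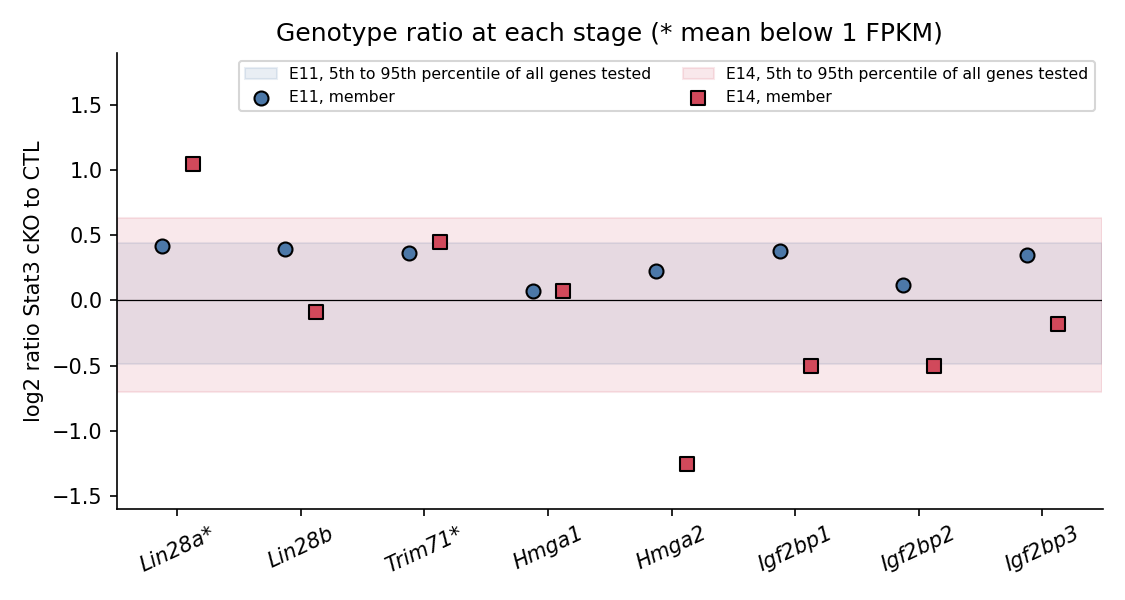
Log2 ratio of Stat3 cKO to CTL (vertical) for each of the 8 genes at E11 (blue circles) and E14 (red squares), with shaded bands from the 5th to the 95th percentile of all genes tested. At E11 all points lie between 0.08 and 0.42; at E14 Hmga2 lies at -1.26, below its band, and Lin28a, with a mean below 1 FPKM, at 1.04.

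The difference between the genotype ratios of the stages, E14 minus E11 on the log2 scale, was -1.48 for Hmga2, -0.88 for Igf2bp1, -0.63 for Igf2bp2, -0.53 for Igf2bp3 and -0.49 for Lin28b, but close to 0 for Hmga1. This is the same quantity as the stage change in Stat3 cKO minus that in CTL. Over all genes tested the median difference was -0.12, so a negative value is the common case, and 61.8% of genes lay below Hmga1. A difference lower than that of Hmga2 was found for 0.845% of them, lower than that of Igf2bp1 for 5.28%, of Igf2bp2 for 12.04%, of Igf2bp3 for 16.2% and of Lin28b for 18.1%. Marker sums at E11 were 1178 FPKM in Stat3 cKO and 1264 in CTL for mesenchyme, and 3.74 and 26.9 for erythroid cells. At E14 they were 74.1 and 52.8 FPKM for mesenchyme, or 12.9 and 16.9 without Pdgfra, and 1.13 and 2.01 for erythroid cells. For neurons they were 708 and 675 FPKM at E11, and 852 and 998 at E14. Of the 8 mesenchymal markers, 2 were past 2-fold lower in Stat3 cKO at E14, Twist1 (0.0353 against 0.450 FPKM) and Lum (0.388 against 0.977), and 1 was higher, Pdgfrb (1.58 against 0.625). The part of these cell types in the genotype ratios was not tested.

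Among the 6 members above the required mean, those with 4 let-7 matches had lower ratios of E14 to E11 in CTL than those with 1, by little between Igf2bp1 and Igf2bp2. In CTL the genes with 4 matches had log2 ratios of E14 to E11 of -4.11 (Trim71), -3.03 (Hmga2), -2.79 (Lin28b) and -1.54 (Igf2bp1). Lin28a, with 2 matches, had -4.43, on the few fragments given above. Igf2bp2, Hmga1 and Igf2bp3, with 1 match each, had -1.47, -0.16 and -0.12. Over all genes tested, grouped by the number of matches after the data had been seen, the median log2 ratio in CTL was 0.24 for 10080 genes with no match, 0.07 for 1049 genes with 1, -0.04 for 122 genes with 2 and -0.98 for 20 genes with 3 or more. The shares at least 2-fold lower were 12.1%, 13.6%, 18.0% and 50% (10 of 20). In Stat3 cKO the medians were 0.08, -0.08, -0.18 and -0.69. The genes with 3 or more matches also had longer UTRs, with a median of 4455.5 bases against 1143 for those with no match, and the part of UTR length in these medians was not tested. The 2916 genes with no match and a UTR of at least 2000 bases, whose median UTR was 3027 bases, had a median ratio of 0.10 in CTL. As 3 of the 20 genes were members themselves, the value without them is also given, a median of -0.46 in CTL with 7 of 17 genes at least 2-fold lower.

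**Figure D5:**
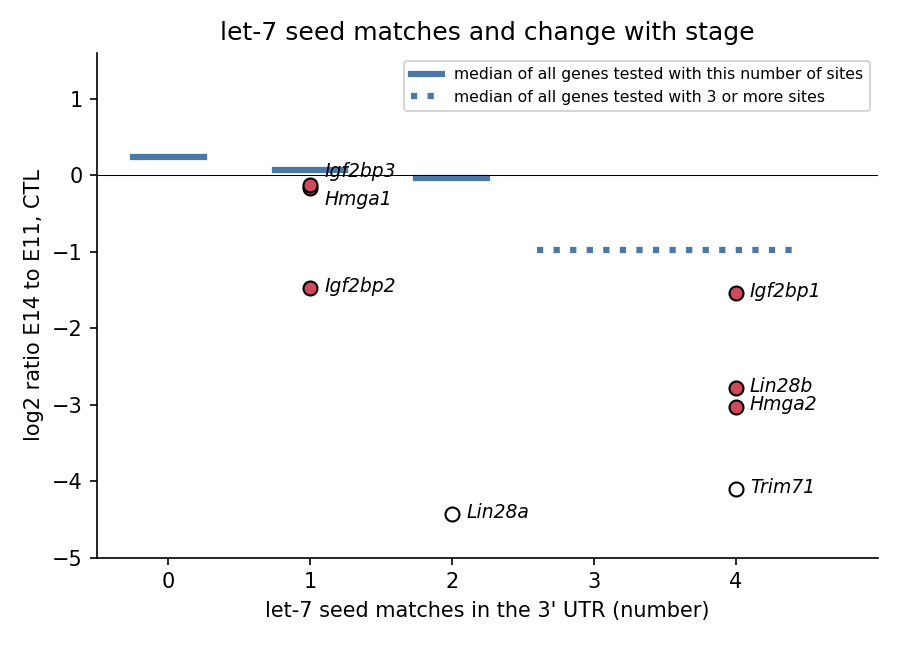
Number of let-7 seed matches in the 3′ UTR (horizontal) and log2 ratio of E14 to E11 in CTL (vertical) of the 8 genes (circles, open where the mean is below 1 FPKM), with bars for the medians of all genes tested. The medians go from 0.24 with no match to -0.98 with 3 or more, and the 4 members with 4 matches lie between -4.11 and -1.54. The last median takes in Hmga2, Lin28b and Igf2bp1, and without members it is -0.46.

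Of 16 genes that process, tail or load let-7, 3 were at least 2-fold lower at E14 in CTL, where 12.5% of all genes tested were, and 4 in Stat3 cKO, where 11.7% were, and none was 2-fold higher. The list median was -0.29 in CTL and -0.52 in Stat3 cKO, beside 0.21 and 0.06 over all genes. Msi1, an RNA-binding protein of neural stem cells that works with LIN28, had 21.2 FPKM in CTL against 21.8 in Stat3 cKO at E11, and 4.25 against 7.03 at E14. Zcchc11 (TUT4), the terminal uridylyltransferase that LIN28A recruits to precursor let-7, had 21.2, 20.8, 8.29 and 7.79 FPKM in the same order. These genes are named for having the largest ratios of the list, and other members, picked after their values were seen, had higher values at E14 in CTL, with log2 ratios of 0.56 for Tarbp2, 0.55 for Prkra and 0.50 for Dis3l2, none past 2-fold. Ago2, listed under its older symbol Eif2c2, which encodes the slicing Argonaute, had 5.22, 5.25, 2.59 and 2.498 FPKM. It only just reached 2-fold, being 2.01-fold lower at E14 in CTL and 2.10-fold lower in Stat3 cKO. Dicer1, which cuts the precursor and is itself a let-7 target, passed 2-fold in Stat3 cKO alone, with 11.2, 12.2, 5.89 and 5.23 FPKM. None of the 16 passed 2-fold between genotypes at either stage. Of all genes, 1.12% were 2-fold lower and 0.209% higher in Stat3 cKO at E11, and 1.69% and 1.85% at E14.

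Other let-7 targets that regulate growth went in both directions in CTL, and more of them were lower than higher in Stat3 cKO. Of 20 such genes 19 were tested, and in CTL 4 were at least 2-fold lower at E14 and 3 higher (12.5% and 14.6% of all genes), with a median log2 ratio of -0.12 beside 0.21 over all genes. In Stat3 cKO 7 were lower and 1 higher (11.7% and 10.1% of all genes), with a median of -0.72 beside 0.06. Arid3b, an AT-rich DNA-binding factor, had 1.80 FPKM in CTL against 2.09 in Stat3 cKO at E11, and 0.474 against 0.490 at E14, and Plagl2, a zinc finger factor, had 2.91, 2.59, 0.768 and 0.616 FPKM. Both followed the direction of Hmga2. Myc, a growth-promoting transcription factor, went the other way, with 1.37, 0.990, 5.85 and 3.35 FPKM. Ccnd1, the D-type cyclin that drives entry into the cell cycle, had 101, 120, 210 and 34.2 FPKM and was the single gene of the 19 past 2-fold between genotypes, being 6.14-fold lower in Stat3 cKO at E14, where 1.69% of all genes were 2-fold lower.

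HMGA2 is known to restrain the INK4/ARF locus in young neural stem cells, so the genes of this axis were also read. Of 6 genes 5 were tested, and 1 was at least 2-fold lower at E14 in CTL, beside 12.5% of all genes, and 2 in Stat3 cKO, beside 11.7%, with none higher. The list medians were -0.47 and -0.27, beside 0.21 and 0.06 over all genes. Cdkn2b, which encodes the inhibitor p15, had 5.63 FPKM in CTL against 1.53 in Stat3 cKO at E11, and 2.80 against 2.24 at E14. Its stage ratio in CTL only just reached 2-fold, and with 0.1 FPKM added to each value the count in CTL became 0. Cdkn2b was the single gene of the 5 past 2-fold between genotypes, being lower in Stat3 cKO at E11, as were 1.12% of all genes. Cdkn1a, which encodes p21, had 9.70, 6.53, 5.32 and 2.68 FPKM, and Trp53 12.9, 14.9, 9.31 and 5.89 FPKM, both past 2-fold with stage in Stat3 cKO. Cdkn2a, which encodes INK4A and ARF and was added after its values were seen, stayed under the required mean, with 0.449, 0.0468, 1.298 and 0.508 FPKM.

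Transcripts known to be bound by IMP proteins went in both directions. Of 6 tested, 2 were at least 2-fold lower at E14 and 2 higher in each genotype, where 12.5% of all genes were lower and 14.6% higher in CTL, and 11.7% and 10.1% in Stat3 cKO. The list medians were 0.42 and 0.14, beside 0.21 and 0.06 over all genes. Igf2, the growth factor that gave the Igf2bp genes their name, had 60.01 FPKM in CTL against 55.8 in Stat3 cKO at E11, and 0.783 against 0.396 at E14, and H19, the imprinted noncoding RNA next to it, had 552, 483, 5.67 and 13.8 FPKM. The pair thus went down far more steeply than any IMP gene, in the same libraries in which the mesenchymal markers were low. Mapt, which encodes the tau protein of axons, had 25.3, 20.2, 56.8 and 54.7 FPKM, and Cd44, an adhesion receptor, had 3.69, 1.04, 11.01 and 4.23 FPKM. Between genotypes Cd44 was past 2-fold lower in Stat3 cKO at both stages (1.12% of all genes at E11 and 1.69% at E14), and H19 was 2.44-fold higher in Stat3 cKO at E14, where 1.85% of all genes were 2-fold higher.

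Of 14 genes known to be high in progenitors of a later stage, 10 were at least 2-fold higher at E14 in CTL, where 14.6% of all genes tested were, and 9 in Stat3 cKO, where 10.1% were. The list medians were 1.51 and 1.69 on the log2 scale, beside 0.21 and 0.06 over all genes, and none of the 14 was 2-fold lower. Aldoc, a glycolytic enzyme of astroglia, had 2.69 FPKM in CTL against 2.93 in Stat3 cKO at E11, and 193 against 235 at E14. Fabp7, a fatty acid-binding protein of radial glia, had 516, 594, 5245 and 5929 FPKM. Nfix, a transcription factor of late progenitors, had 1.65, 0.622, 11.8 and 10.8 FPKM, and Dbi, which binds acyl-CoA, had 121, 237, 1555 and 2105 FPKM. Between genotypes 1 gene was 2-fold lower in Stat3 cKO at each stage, Nfix at E11, where 1.12% of all genes were, and, named after its values were seen, Hopx at E14 (11.7 against 38.3 FPKM), where 1.69% were. Of 9 further genes of the early embryo 4 were tested, and 1 was 2-fold lower at E14 in both genotypes (12.5% and 11.7% of all genes), with list medians of -0.51 and -0.70 beside 0.21 and 0.06 over all genes. This was Crabp2, a carrier of retinoic acid, with 76.9, 80.8, 0.04996 and 0.483 FPKM. It was past 2-fold higher in Stat3 cKO at E14, as were 1.85% of all genes, at a level under 1 FPKM. Those not tested, Sall4, L1td1, Epcam, Cldn6 and Hes3, had means under 1 FPKM and lower values at E14 in both genotypes. In CTL they were lower by between 1.87-fold (Cldn6) and 8.32-fold (Sall4).

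For the members above the required mean other than Igf2bp1, the genes with the most similar profile over the 4 libraries were found by the distance between log2 values centred on each gene's own mean, among 12419 genes. For Lin28b these were Lgr4 (distance 0.0516) and Prrx2 (0.0968). Hmga2 was nearest to Col12a1 (0.294) and Ptgis (0.418), distances larger than those of the other members given here. For Igf2bp2 they were Agpat2 (0.0822) and Shroom4 (0.0920), for Igf2bp3 Prr3 (0.0270) and Prdm15 (0.0338), and for Hmga1 Sppl3 (0.0177) and Cacnb3 (0.0273). A profile of 4 values is short.

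The promoters were searched for the letters bound by the factor deleted here. RefSeq promoters on GRCm38.p6, windows of 300 bases around the start of a gene, were in the table for 7 of the 8 genes, Igf2bp1 being without an entry. The STAT core TTCNNNGAA, which reads the same on both strands, was in 8.30% of 32851 promoters, and 0.457% held at least 2. Lin28a held 2, in the window at chr4:134018767-134019066, and the other 6 genes held none. The E-box CACGTG, the palindrome bound by MYC, was in 7.15% of promoters. Igf2bp3 held 2 and Lin28b held 1. These are letters in a short window only, and no binding was measured in the libraries.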

How the data were processed

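RNA sequencing of 4 libraries of mouse neural progenitors was analysed. According to the study, the authors checked reads with FastQC and ran the TopHat and Cufflinks pipeline. The files deposited for each library hold FPKM values. The submitters' processing notes also name Bowtie 0.12.2 and the builds mm8 and mm9 without saying which was used, so gene positions are given as listed and were not combined with the GRCm38 positions of the let-7 sites and promoters. Further scaling between libraries, the annotation and the use of strand are not given in the sources used here.

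FPKM were used as deposited, by plain ratios without a pseudocount, for genes whose mean reached 1 FPKM. A value of 0 gave no ratio. Each group held 1 library, and no test was run. FPKM give no read counts. Rough fragment numbers were obtained from the commonest low step of FPKM multiplied by transcript length, and they assume the longest GENCODE M21 transcript. The steps were tested on simulated data. Seed matches were searched in the longest 3′ UTR per gene of GENCODE M21. The named genes were the members, Stat3, at most 4 genes with the largest ratio in each list and the 2 nearest profiles per member, those of Igf2bp1 not being reported here. Other genes, among them single marker genes and the genes outside the group with several seed matches, were named after their values were seen. The members, lists and searches were chosen with earlier results of these data known. The alternatives were pseudocounts of 0.1 and 1, a minimum of 5 FPKM or none, 3 other scalings and thresholds of 1.5-fold and 3-fold. Python 3.11.15 was used with numpy 2.4.6, pandas 2.3.3 and matplotlib 3.10.9.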

Additional observations from a re-analysis of the deposited data

Results flagged for a closer look

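For 5 genes the ratio of Stat3 cKO to CTL lay above 1 at E11 and below 1 at E14, with 1 library in each group. The difference between the stages, E14 minus E11 on the log2 scale, was -1.48 for Hmga2, -0.88 for Igf2bp1, -0.63 for Igf2bp2, -0.53 for Igf2bp3 and -0.49 for Lin28b, and it was not tested. The same change of side was found for 38.7% of all genes tested, and all genes had a median difference of -0.12.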

How the results depend on the processing

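Of 107 recomputed counts and medians over the members, 100 stayed close to the reported value. With 1 FPKM added to each value, the count of members past 2-fold lower between genotypes at E14 became 0. Without a minimum level, which adds Lin28a and Trim71, the members' median for E14 against E11 became -2.17 in CTL and -2.85 in Stat3 cKO. Between genotypes at E14, 1 member, Lin28a, then passed 2-fold on the higher side. Its values rest on roughly 9.3 fragments in Stat3 cKO and 4.1 in CTL. Over all genes, 1553 passed on that side without a minimum, against 230 with it. When FPKM were divided by their sum, the median in Stat3 cKO became -3.12. At 3-fold, 2 members were lower at E14 than at E11 in CTL (Lin28b and Hmga2). In Stat3 cKO, Lin28b, Hmga2, Igf2bp1 and Igf2bp2 stayed past this threshold between stages, from 4.29-fold for Igf2bp2 to 22.8-fold for Hmga2. Between genotypes at E14, the count of lower members became 0 at 3-fold. None of these counts and medians reversed. Scaling moved the split of all genes. At E14 in CTL, 1548 genes were lower and 1820 higher as deposited, 2237 and 896 with upper-quartile scaling, and 2795 and 653 after division by the sum. In Stat3 cKO these were 1452 and 1258, 1705 and 1002, and 4813 and 435. The list counts are small, and 90 of 647 recomputed list counts and single gene values moved. No paired analysis was run and no library was left out, as each group held 1 library. The spread between replicates is unknown, so no genotype ratio can be set against it.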

Other observations

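Several genes outside the group that also held 3 or more let-7 seed matches in their 3′ UTR had lower values at E14, and they were picked after their values were seen. For Fignl2 the log2 ratio between E14 and E11 was -3.12 in CTL and -2.78 in the Stat3 cKO libraries, for Zc3hav1l -2.13 and -2.29, and for Hic2 -1.28 and -1.36. The genes with the most matches did not follow, since Mcf2l and Nudt12, with 7 matches each, had ratios of 0.33 and 0.25 in CTL and of 0.32 and 0.87 in Stat3 cKO. Between genotypes none of the 17 genes outside the group passed 2-fold at either stage. Of all genes, 1.12% were 2-fold lower and 0.209% higher in Stat3 cKO at E11, and 1.69% and 1.85% at E14.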
